A study of Caenorhabditis elegans with 2 samples.

Results

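The nuclear receptor NHR-41 was mapped in *Caenorhabditis elegans* by chromatin immunoprecipitation followed by sequencing, and 220 of the 1069 peaks shared by the replicates lay inside protein-coding genes, away from promoters and from tRNA genes. A peak was counted when its summit fell between the ends of a protein-coding gene. Summits from 500 bp upstream to 200 bp downstream of the 5′ end of any protein-coding transcript were left out, as were summits within 500 bp of a tRNA gene. The remaining peaks divided into 305 at proximal promoters, 325 in distal intergenic DNA and 219 near tRNA genes. The animals were of strain RW12221, in which CRISPR had placed TY1, EGFP and 3xFLAG tags on the endogenous nhr-41 gene on chromosome IV. They were grown from starved L1 larvae obtained by bleaching and were collected as whole L4 larvae at 48.5 h. Chromatin was broken by sonication into pieces of 200 to 800 bp and immunoprecipitated through the GFP part of the tag. The 2 biological replicates form a single group, so no condition could be compared, and binding in different tissues of the whole animal cannot be told apart. No peak list from untagged animals was analysed here. Signal is the value of the authors' peak caller in the list made from both replicates, and the files do not state what it is relative to. Intervals are exact 95% binomial intervals, which cover counting error only, and neighbouring peaks are not independent.

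Nuclear receptors bind DNA through a zinc finger domain that reads hexamers related to AGGTCA, alone or as direct or inverted repeats. In *C. elegans* the long introns of developmental genes can hold enhancers, and introns also house small RNA genes. Small nucleolar RNAs (snoRNAs) guide the chemical modification of ribosomal RNA, and small nuclear RNAs (snRNAs) form the core of the spliceosome. Genes read by RNA polymerase III, such as tRNA genes, carry internal promoter elements called the A box and the B box.

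The strongest peaks in introns fell into a set at nested small RNA genes and a set with none nearby. Shown first are the 151 bp windows centred on the summits of 5 strong intronic peaks at a snoRNA gene, read on the strand of the snoRNA gene from the RefSeq sequence of assembly WBcel235 (ce11). Capitals mark matches to the A box and the B box. The windows are chrV:8500485-8500635 (plus) in pxn-1, chrV:11314138-11314288 (plus) in cutl-18, chrV:9970221-9970371 (minus) in unc-41, chrII:5105151-5105301 (minus) in mpk-2 and chrV:19643121-19643271 (minus) in Y43F8C.7.
pxn-1: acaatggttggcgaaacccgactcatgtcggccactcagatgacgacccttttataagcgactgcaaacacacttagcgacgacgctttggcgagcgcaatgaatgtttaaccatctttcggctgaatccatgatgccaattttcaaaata
cutl-18: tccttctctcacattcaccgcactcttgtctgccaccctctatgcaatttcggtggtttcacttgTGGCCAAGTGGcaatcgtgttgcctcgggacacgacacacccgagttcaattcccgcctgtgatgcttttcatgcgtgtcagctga
unc-41: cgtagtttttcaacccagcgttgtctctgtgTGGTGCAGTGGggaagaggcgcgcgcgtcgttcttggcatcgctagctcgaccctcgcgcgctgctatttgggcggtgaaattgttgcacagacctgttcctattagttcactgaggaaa
mpk-2: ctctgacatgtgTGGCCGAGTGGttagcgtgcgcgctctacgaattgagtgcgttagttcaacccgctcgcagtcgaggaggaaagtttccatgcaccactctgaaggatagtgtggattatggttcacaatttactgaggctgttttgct
Y43F8C.7: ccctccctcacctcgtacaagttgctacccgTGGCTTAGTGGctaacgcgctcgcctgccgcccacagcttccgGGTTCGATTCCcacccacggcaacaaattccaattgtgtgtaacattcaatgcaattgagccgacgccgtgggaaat
The annotated snoRNA gene began at base 95 of the pxn-1 window, base 121 at cutl-18, base 101 at unc-41, base 71 at mpk-2 and base 85 at Y43F8C.7. The A box therefore stood upstream of the annotated snoRNA in the windows of cutl-18, unc-41, mpk-2 and Y43F8C.7. The pxn-1 window held neither box.

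The next windows are from strong intronic peaks with no snoRNA, snRNA or miRNA gene within 500 bp, on the strand of the host gene. They show the strongest such peak, at T23B5.3, then cmk-1, and further peaks that carry sites described below. Except in unc-104, capitals mark the nuclear receptor hexamer AGGTCA, the GATA site TGATAA, the E-box CACGTG, the GAGA repeat GAGAGA and their reverse complements. In unc-104 they mark the A and B boxes alone. That window also holds the reverse complement of the hexamer, TGACCT, which is left in lower case. The windows are chrIV:12689715-12689865 (plus) in T23B5.3, chrIV:1831292-1831442 (plus) in cmk-1, chrIV:6880535-6880685 (minus) in tre-2, chrII:7777458-7777608 (minus) in mthf-1, chrV:10715918-10716068 (minus) in T28B11.1, chrIII:2876058-2876208 (plus) in klf-1 and chrII:7001562-7001712 (plus) in unc-104.
T23B5.3: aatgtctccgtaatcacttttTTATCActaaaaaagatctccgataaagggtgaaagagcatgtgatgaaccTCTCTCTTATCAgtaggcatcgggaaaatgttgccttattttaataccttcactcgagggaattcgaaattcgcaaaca
cmk-1: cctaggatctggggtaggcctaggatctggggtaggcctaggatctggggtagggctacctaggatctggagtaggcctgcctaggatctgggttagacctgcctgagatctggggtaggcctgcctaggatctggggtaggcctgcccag
tre-2: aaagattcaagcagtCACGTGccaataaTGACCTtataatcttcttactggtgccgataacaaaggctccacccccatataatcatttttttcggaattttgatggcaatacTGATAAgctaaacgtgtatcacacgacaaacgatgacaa
mthf-1: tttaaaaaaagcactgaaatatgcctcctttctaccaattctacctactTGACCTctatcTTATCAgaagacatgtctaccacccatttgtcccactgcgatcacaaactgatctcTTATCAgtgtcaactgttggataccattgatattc
T28B11.1: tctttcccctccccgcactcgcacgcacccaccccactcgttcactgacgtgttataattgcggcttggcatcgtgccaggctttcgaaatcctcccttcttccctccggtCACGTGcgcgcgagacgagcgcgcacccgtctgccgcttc
klf-1: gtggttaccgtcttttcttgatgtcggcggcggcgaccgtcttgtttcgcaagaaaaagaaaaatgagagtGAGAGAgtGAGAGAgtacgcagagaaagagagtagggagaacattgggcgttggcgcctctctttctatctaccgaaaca
unc-104: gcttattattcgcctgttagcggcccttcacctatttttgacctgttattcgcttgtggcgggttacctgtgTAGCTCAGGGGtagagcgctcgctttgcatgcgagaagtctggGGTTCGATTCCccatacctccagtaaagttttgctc
The tre-2 window held the hexamer, the E-box and the GATA site together, and the mthf-1 window held the hexamer beside GATA sites. The cmk-1 window held none of them and is a tandem repeat, in which the 10-mer cctaggatct occurs 6 times. How reads from such repeats were placed is not stated, and 17 of the 220 windows held a 10-mer 4 times or more. The unc-104 summit lay inside a tRNA pseudogene of the RefSeq annotation, which the rule on tRNA genes does not cover.

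Summits inside genes lay mainly in introns. Of the 220, 178 were intronic (80.9%, interval 75.1 to 85.9), against 55.2% of the bases that satisfy the same rule. Coding exons held 24 summits (10.9%, interval 7.12 to 15.8) against 38.8% of those bases, and UTR exons held 18 (8.18%, interval 4.92 to 12.6) against 6.0%. For introns and coding exons the base share lay outside the interval, and for UTR exons inside it. The bases that satisfy the rule came to 53.6 Mb, or 53.4% of the genome.

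Long introns carried most of the intronic summits. An intron number and length could be set for 175 of them in the longest transcript of the host, and 77 (44.0%, interval 36.5 to 51.7) were in introns of at least 3000 bp, against 22.5% of the intronic bases open to the rule. Introns of at least 1000 bp held 121 (69.1%, interval 61.7 to 75.9) against 48.8%. The median intron with a summit was 2390 bp long, whereas the median intronic base lay in an intron of 966 bp. The first intron of the host held 53 summits (30.3%, interval 23.6 to 37.7) against 21.9% of intronic bases, and the last intron 21 (12%, interval 7.58 to 17.8) against 15.5%. Along the host gene the median summit lay at 45.1% of its length (quartiles 24.6 and 76.2), and at 1251 bp from the nearest annotated 5′ end.

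**Figure D1:**
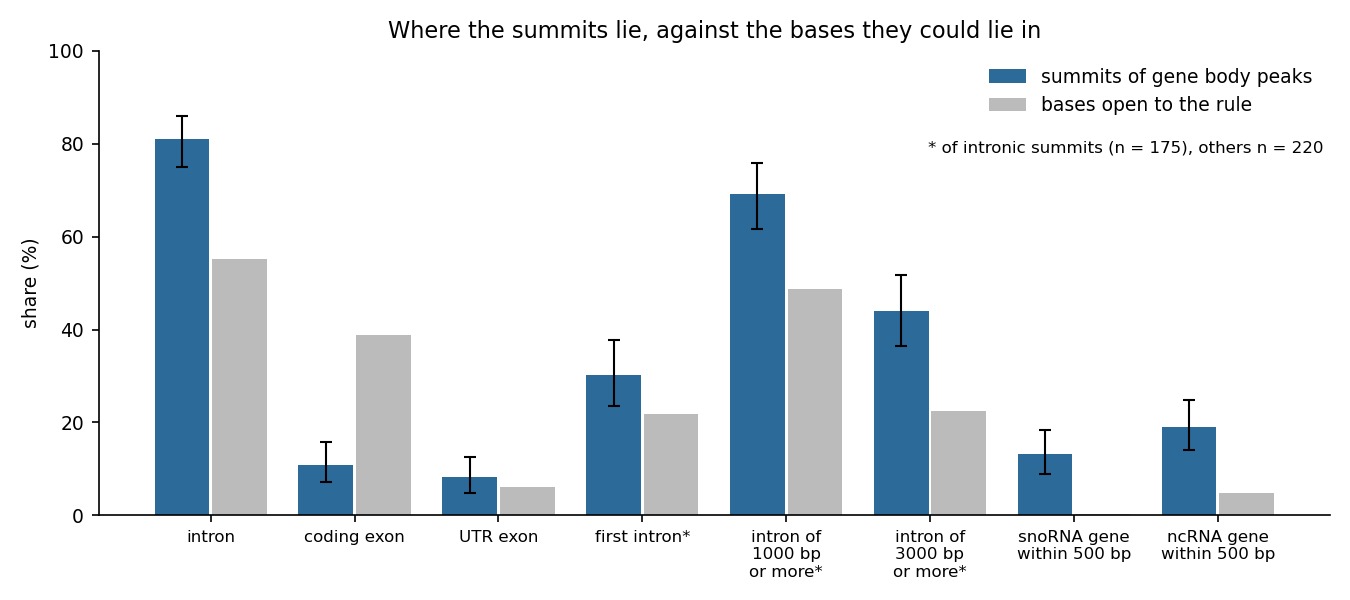
Share of gene body summits (blue, with exact 95% intervals) and of the bases open to the rule (grey) in each class of location, in percent. Introns held 80.9% of summits and 55.2% of bases, and snoRNA genes were within 500 bp of 13.2% of summits and 0.362% of bases.

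The strongest peak in a gene body stood in the gene pxn-1, which encodes a peroxidasin, an extracellular matrix peroxidase. Its signal was 311 and ranked 2 among all 1069 peaks. Replicate 1 gave 139 and replicate 2 gave 177 at this site (158 ± 26.8, SD, n = 2). The peak at frm-7, a FERM domain gene, had a signal of 264 with replicate values of 136 and 126. At cutl-18, a cuticlin-like gene, it was 239 with replicate values of 113 and 119. The bound introns of pxn-1, frm-7 and cutl-18 each hold a snoRNA gene, and both replicates were high at these sites.

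At T23B5.3, for which no function is given here, the strongest of 3 intronic peaks had a signal of 250, with 95.8 in replicate 1 and 153 in replicate 2. It stood in intron 2, and the window printed above holds 2 GATA sites and a GAGA repeat. At ints-8, which encodes a subunit of the Integrator complex that processes snRNAs, the signal was 234, with 89.9 and 132 in the replicates. That intron also holds rpr-1, the RNA subunit gene of RNase P, annotated under the general class ncRNA. At unc-41, which encodes a stonin-like protein of synaptic vesicle recycling, the signal was 186, with 70.2 and 108.

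The other peaks among the 20 strongest had signals of 180 at dhc-4 (a dynein heavy chain), 166 at cmk-1 (calcium/calmodulin-dependent kinase I), 163 at mpk-2 (a MAP kinase), 157 at tre-2 (a trehalase) and 155 at dos-3. Below these stood Y43F8C.7 at 153, mdt-26 (a Mediator subunit) at 151, twk-5 (a potassium channel) at 149, egl-27 (a chromatin-associated factor) at 148 and klf-1 (a Krüppel-like factor) at 138. The rest were haf-9 (an ABC transporter of gut granules) at 133, ppat-1 (an enzyme of purine synthesis) at 128, mom-1 (a Porcupine homologue that acts on Wnt ligands) at 128 and mthf-1 (methylenetetrahydrofolate reductase) at 126. In 19 of the 20 the summit was intronic, and at dos-3, a Notch ligand-like gene, it lay in a coding exon. All 20 overlapped a peak in the thresholded list of each replicate. Among all 1069 peaks, 5 of the 20 strongest and 17 of the 100 strongest lay in gene bodies.

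**Figure D2:**
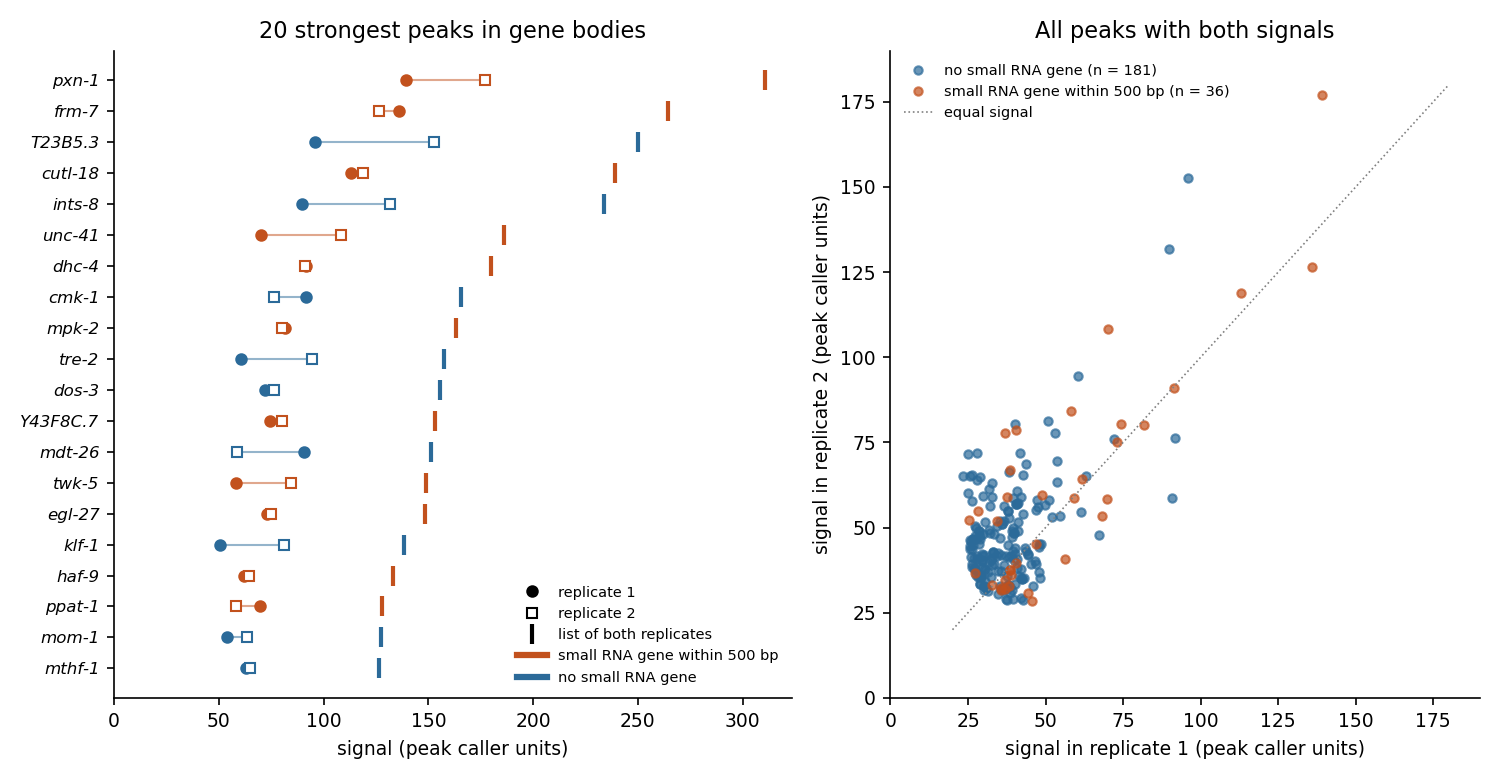
Left, signal at the 20 strongest gene body peaks in replicate 1 (filled circles), replicate 2 (open squares) and the list of both replicates (bars), by host gene, in units of the peak caller. Right, signal in replicate 2 against replicate 1 for the 217 peaks with both values, where 156 lie above the dotted line of equal signal and peaks at small RNA genes (orange) reach 139 and 177.

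The bulk of the peaks were much weaker and close together in signal. The median over the 220 was 77.8 (quartiles 66.9 and 95.3, range 2.02 to 311), beside 83.1 for promoter peaks and 82.8 for distal intergenic peaks. The score that the authors capped at 1000 stood at that cap for 147 peaks, and the lowest was 830. Both replicate signals were available for 217 peaks. Replicate 2 was higher at 156 of them (71.9%), with a median ratio of 1.23 over replicate 1. Across peaks Pearson's r between the replicates was 0.715 and Spearman's rho 0.274. These correlations are descriptions over 217 peaks of the same 2 libraries.

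Each replicate's own thresholded list held a part of the peaks. A peak was found in both lists at 46 sites (20.9%, interval 15.7 to 26.9), in the list of replicate 1 alone at 12, in that of replicate 2 alone at 61 and in neither at 101 (45.9%, interval 39.2 to 52.7). The median signal was 122 for the 46 in both lists and 68.4 for the 101 in neither, where the highest was 98.3. Of the peaks at small RNA genes 15 of 37 (40.5%) were in both lists, and of the others 31 of 183 (16.9%). Taken from the list of replicate 1 alone the same rule gave 58 gene body peaks in 55 genes, and from that of replicate 2 alone 129 in 117 genes.

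Some peaks were not separate observations. The authors' ranked list paired 13 sets of 2 gene body peaks with the same pair of replicate peaks, so the replicate signals of the 26 peaks are copies within each set. Their summits were 200 to 217 bp apart. The stronger peak of each set had a signal of 49.5 to 96.6 and the weaker 2.02 to 23.9, although most of the weaker ones carried the full score of 1000. Of the 15 peaks with a signal under 35, 13 were such weaker peaks, as at fkh-7 (2.02), zfp-1 (2.45) and mnk-1 (6.37).

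Small RNA genes nested in the host gene were frequent at the top of the list. A snoRNA, snRNA or miRNA gene lay within 500 bp of 37 summits (16.8%, interval 12.1 to 22.4), whereas 0.640% of the bases open to the rule are that close to one. It was present at 6 of the 10 and 11 of the 20 strongest gene body peaks. The median signal was 96.9 at the 37 peaks (quartiles 74.8 and 133) and 76.6 at the other 183 (quartiles 65.7 and 91.8), so the ranges overlapped widely. The other classes went the same way. Medians with and without a small RNA gene were 100.6 and 81.5 for distal intergenic peaks, and 89.3 and 82.9 for promoter peaks. The 37 gene body peaks lay in short introns, with a median length of 354.5 bp over 34 of them (quartiles 284 and 826), and the other 183 in long ones, with a median of 3368 bp over 141 (quartiles 1299 and 6824). Introns of at least 1000 bp held 20.6% (interval 8.70 to 37.9) of the first set and 80.9% (interval 73.4 to 87.0) of the second. Peaks near a tRNA gene were excluded by the rule, and the closest tRNA gene to any of the 220 was 924 bp away, at pxn-1.

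snoRNA genes accounted for 29 of the 37 peaks. Seen from the RNA genes, 30 of 211 snoRNA genes within protein-coding genes (14.2%, interval 9.80 to 19.7) had a gene body summit within 500 bp. The summits gathered just upstream of the snoRNA, at a median of 26.5 bp before its annotated 5′ end (quartiles 49.8 bp before and 12.5 bp after). At 19 of the 30 genes the summit was within 200 bp upstream, and at 5 it was inside the gene. A summit was found at 23 of 179 snoRNA genes on the host's strand (12.8%) and at 7 of 32 on the opposite strand (21.9%), as at cutl-18, mpk-2, twk-5 and haf-9. With a single summit taken per gene, the 30 genes drew on 28 peaks. The summits at frm-7 and pdl-1 were each counted for a pair of snoRNA genes, and the pair at pdl-1 is on the opposite strand.

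**Figure D3:**
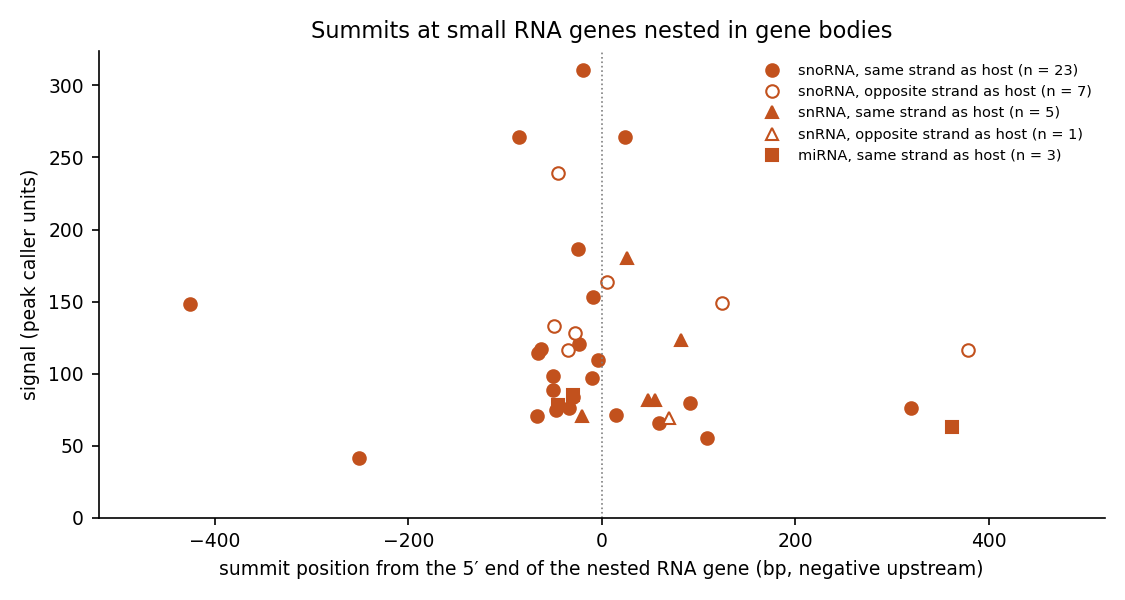
Signal of the peak (vertical axis, peak caller units) against the distance of its summit from the 5′ end of the nested small RNA gene (bp, negative upstream), 1 point for each RNA gene with a gene body summit within 500 bp. Filled symbols are genes on the host's strand and open symbols genes on the opposite strand, and 19 of the 30 snoRNA genes have the summit within 200 bp upstream.

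The snoRNA genes with a peak carried tRNA-like promoter letters upstream more often than those without one. An A box on the snoRNA's strand and wholly within the 100 bp before it was found at 17 of the 30 genes with a gene body peak (56.7%, interval 37.4 to 74.5) and at 12 of 171 with no peak (7.02%, interval 3.68 to 11.9). A B box was found at 9 of 30 (30.0%, interval 14.7 to 49.4) and at 3 of 171 (1.75%, interval 0.363 to 5.04), and all 9 also had an A box. The position was narrow for most of these genes. The A box began at a median of 60 bp before the snoRNA (quartiles 64 and 56 bp before) and the B box at 20 bp before (quartiles 21 and 18 bp before). The full ranges were -69 to -27 bp and -45 to -12 bp, negative upstream. At C51F7.3 in frm-7 the order was reversed, with the B box at -45 and the A box at -28, both inside the adjacent snoRNA gene. The 9 genes with both boxes include those in fars-1 and mltn-9, whose summits lie inside tRNA pseudogenes. These counts were chosen after the A and B boxes had been seen at the summits, and no test was made of them. The A box was searched by name as the consensus of tRNA genes with no mismatch and the B box with up to 1 mismatch, so a match is not a shown promoter.

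snRNA genes had fewer peaks, and most are members of repeated families. A summit lay within 500 bp of 6 of 65 nested snRNA genes (9.23%, interval 3.46 to 19.0), with the strongest at dhc-4. The snRNA gene there carries a name that the annotation gives to 14 genes, so reads from other copies may be counted there. The signal at dhc-4 was 180, with 91.4 and 90.9 in the replicates. Summits at sup-6 in F58G1.7 (signal 124) and sup-39 in C15F1.5 (signal 81.6), both U1 snRNA genes, lay 82 bp and 55 bp inside the RNA gene. The 6 genes include mir-1831, which is annotated as an snRNA gene inside sup-39 and shares its summit. For the 6 the median summit was 51.5 bp after the 5′ end. miRNA genes had a summit within 500 bp at 3 of 107 (2.80%, interval 0.582 to 7.98), with the highest signal, 85.3, at mir-2214 in B0361.11. The summit at mir-71 in ppfr-1 (signal 78.1) lay 45 bp upstream of the hairpin, whereas that at mir-58a in Y67D8A.2 (signal 62.8) lay 362 bp from its 5′ end.

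Genes of the general class ncRNA were also close to summits. They lay within 500 bp of 42 summits (19.1%, interval 14.1 to 24.9) against 4.78% of bases, and 29 of these had no snoRNA, snRNA or miRNA gene nearby. The share was 18.7% at promoter summits and 24.0% at distal intergenic summits, so this closeness was not particular to gene bodies. A RefSeq tRNA pseudogene lay within 500 bp of 3 summits, at unc-104 (signal 122), fars-1 (114.6) and mltn-9 (109), against 0.175% of bases. All 3 summits were inside the pseudogene and all 3 windows held a B box. At fars-1 and mltn-9 a snoRNA gene was also near.

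The sequence at the summits differed from that of neighbouring DNA. Each 151 bp summit window was compared with a window of the same length centred 500 bp away on the 5′ side of the host gene, with the exact 2-sided McNemar test and Benjamini-Hochberg adjustment over 35 motifs searched on both strands. Over the 220 peaks 6 of 35 motifs (17.1%) passed an adjusted p of 0.05. The GAGA repeat GAGAGA, a motif of open chromatin known from *Drosophila*, was in 25.9% of summit windows and 10.9% of flanking windows (exact McNemar adjusted p = 0.00118), beside 7.0% of 354762 tiles of gene body DNA. The B box was in 10.5% and 1.36% (exact McNemar adjusted p = 0.00118), the E-box CACGTG, read by basic helix-loop-helix factors, in 9.09% and 2.27% (adjusted p = 0.0227), and the GC box GGGCGG in 8.64% and 2.27% (adjusted p = 0.0304). The tiles held these 3 at 1.34%, 2.68% and 2.16%.

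The other 2 motifs past the test were less frequent at summits. The Hox-Pbx letters TGATNNAT were in 6.36% of summit and 17.3% of flanking windows (exact McNemar adjusted p = 0.00625), and the TCF letters CTTTGA, read by the Wnt effector, in 5.91% and 13.6% (adjusted p = 0.0445). The strongest peak with a match was let-765 (signal 92.0) for the first and pcyt-1 (signal 84.6) for the second. The strongest carriers were T23B5.3 for GAGAGA, frm-7 for the B box, tre-2 for CACGTG and unc-41 for the GC box. None of the 6 passed in the list of replicate 1 alone, where 58 peaks entered. With flanks on the 3′ side GAGAGA and the B box passed, and CACGTG, the GC box, TGATNNAT and CTTTGA did not. With flanks 1000 bp away only GAGAGA and CACGTG of the 6 passed, and the B box (exact McNemar adjusted p = 0.0806), the GC box (0.433), CTTTGA (0.585) and TGATNNAT (0.791) did not. In the list of replicate 2 alone only GAGAGA of the 6 passed.

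The nuclear receptor hexamer depended on which peaks entered. Over all 220 peaks AGGTCA was in 10.5% of summit windows and 4.09% of flanks (exact McNemar adjusted p = 0.0806), with 3.30% of tiles, and TGATAA, the site of GATA factors, in 24.5% and 15.5% (adjusted p = 0.106), with 13.4% of tiles. Over the 183 peaks with no small RNA gene nearby AGGTCA was in 11.5% and 3.28% (exact McNemar adjusted p = 0.0303), the extended form AAGGTCA in 4.37% and 0 (adjusted p = 0.0391), and TGATAA in 28.4% and 13.7% (adjusted p = 0.0105). In the same 183, CACGTG was in 9.84% and 1.64% (exact McNemar adjusted p = 0.0105) and GAGAGA in 27.9% and 11.5% (adjusted p = 0.00352). AGGTCA also passed over all 220 with 3′ flanks (exact McNemar adjusted p = 0.0106) and with windows reaching 100 bp to each side (adjusted p = 0.0396). It did not pass with a promoter of 1000 bp (exact McNemar adjusted p = 0.51), with windows reaching 50 bp to each side (0.602) or with flanks 1000 bp away (0.248), where the excess over the flanks was 3.57, 3.18 and 5.0 percentage points in place of 6.36. Nor did it pass in either replicate's own list or in the other thresholded list of both replicates (exact McNemar adjusted p = 0.104). At a score of 1000 the adjusted p by the same test was 0.0636, and with 1 peak per pair of replicate peaks 0.0705. Other tRNA distances and 5′ ends of all transcripts left it at 0.0806. Direct repeats of the hexamer with spacers of 0 to 5 bp, and inverted repeats with 0 to 3 bp, were each in at most 3.18% of summit windows, and none passed the test. Up to 2 mismatches were allowed in these repeats, whereas AGGTCA and AAGGTCA were matched exactly.

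The 37 peaks at small RNA genes had another set of letters. The A box was in 48.6% of their summit windows and 5.41% of their flanks (exact McNemar adjusted p = 0.00507) and the B box in 32.4% and 2.70% (adjusted p = 0.0171). AGGTCA was in 5.41% and TGATAA in 5.41% of these windows. Of the 23 summit windows with a B box, 12 were near a small RNA gene, 1 was at the tRNA pseudogene in unc-104, and 10 were near neither. In the 183 others the B box was in 6.01% and 1.09% (exact McNemar adjusted p = 0.0881). The difference in motif share between the 37 and the 183 was not tested.

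**Figure D4:**
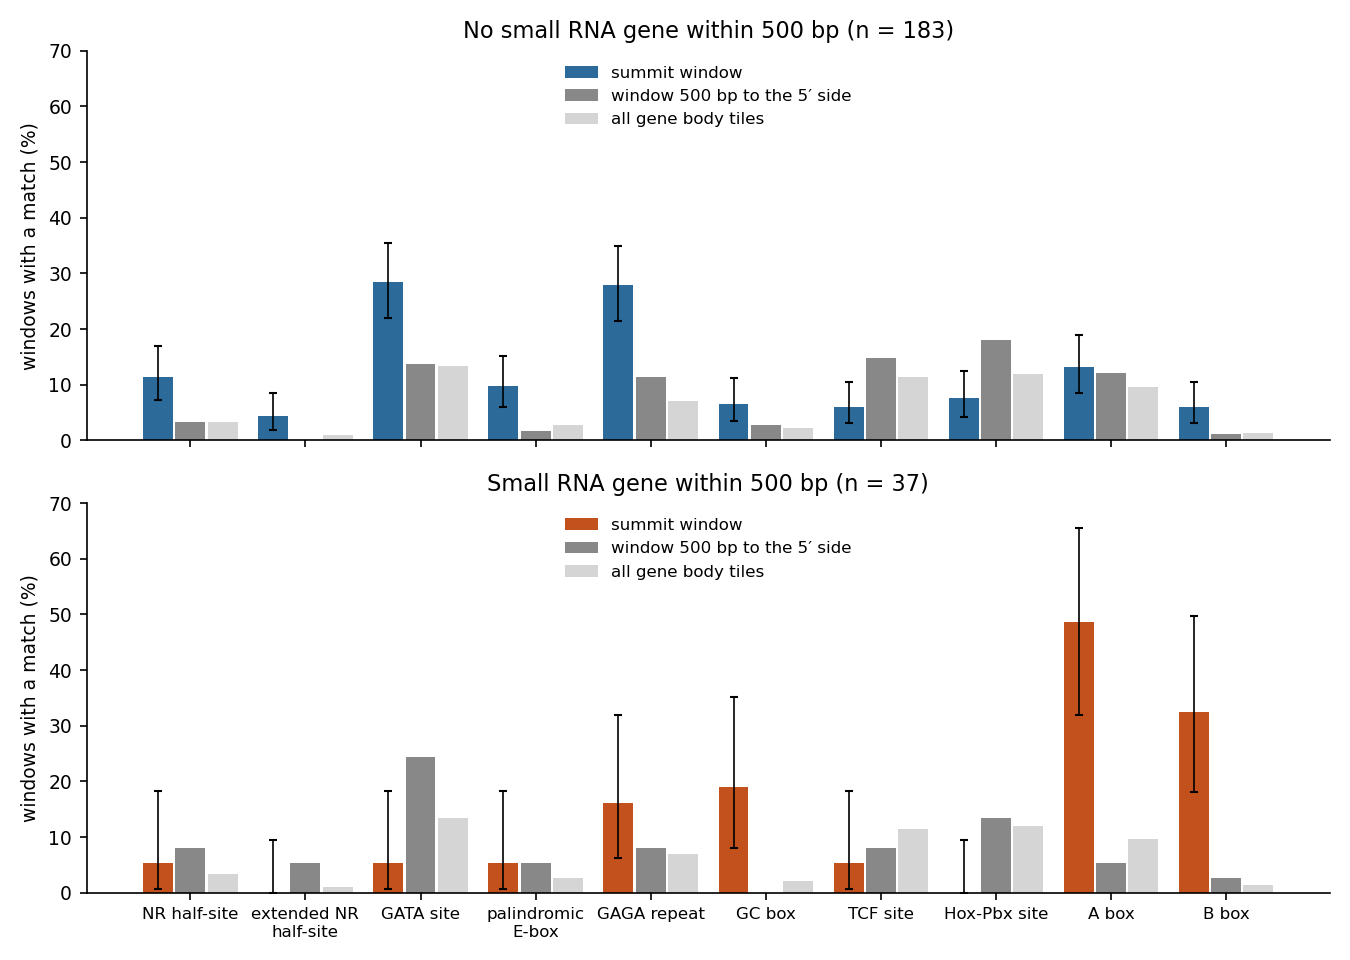
Share of windows with a match, in percent, at the summit (coloured, with exact 95% intervals), in the flank 500 bp to the 5′ side (dark grey) and in all gene body tiles (light grey). In the 183 peaks without a small RNA gene (top) the GATA site reaches 28.4%, and in the 37 with one (bottom) the A box reaches 48.6%.

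The 4 sites of the larger set seldom stood together. Of the 183 peaks, 75 held 1 of the nuclear receptor hexamer, the GATA site, the E-box and the GAGA repeat, 29 held 2, 3 held 3, and 76 (41.5%) held none. In bins of 50 bp, TGATAA was in 12 to 13.1% of peaks in the bins on either side of the summit, against a median of 6.28% in the bins farther out. GAGAGA was in 11.5 to 13.7% there, against a median of 5.46%. In both cases the highest bin farther out reached 12%, so single bins overlap with the centre. AGGTCA was in 7.10% in the bin on the 5′ side of the summit and 0.546% in the bin on the 3′ side, which is 13 and 1 of 183 peaks.

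Base composition changed over the same distance. The median GC content of the summit windows was 45.7% (quartiles 41.1 and 52.3), beside 35.1% in the 5′ flanks, 35.8% in the 3′ flanks and 36.4% in the tiles. The other classes were close to this, with medians of 46.4% at promoter summits and 45.7% at distal intergenic summits. Within the gene body peaks the median was 52.3% at the 37 with a small RNA gene and 44.4% at the other 183. In 182 of the 220 pairs (82.7%) the summit window was richer in GC than its flank. Its part in the motif results was not tested.

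**Figure D5:**
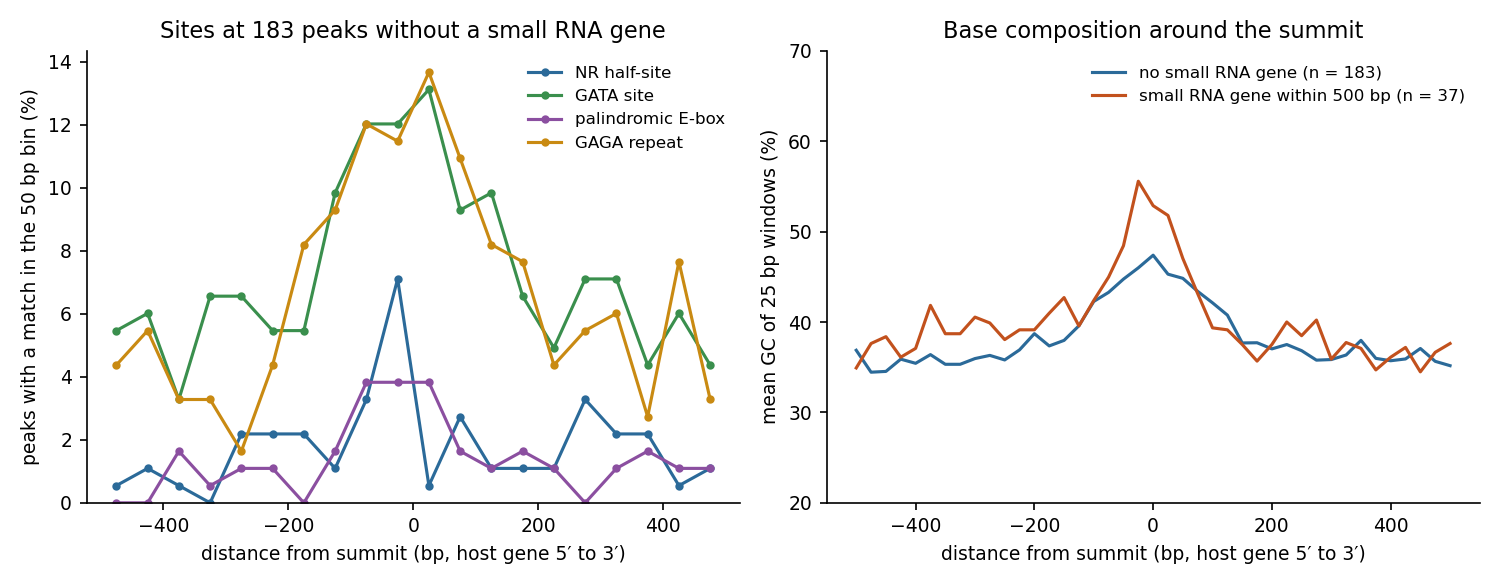
Left, share of the 183 peaks without a small RNA gene that hold a match in each 50 bp bin, by distance from the summit in the direction of the host gene. Right, mean GC content of 25 bp windows by distance, at 47.4% on the summit of the 183 peaks (blue) and 52.9% on that of the 37 with a small RNA gene (orange).

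Over all 6-mers, each counted with its reverse complement, 151 (7.26%) passed the same test, 78 of them more and 73 less frequent at summits, and 425 had an unadjusted p under 0.05. The 5 with the smallest p were all rarer at summits. TTGAAA was in 20.5% of summit windows and 48.6% of flanks (exact McNemar adjusted p = 1.2e-07). AAAAAT was in 26.4% and 55%, AAAATT in 22.7% and 51.8%, AAAATC in 22 summit and 73 flanking windows of 220, and TTCAAA in 17.3% and 44.1%. Among the more frequent ones AGAGAG was in 21.4% and 6.36% (exact McNemar adjusted p = 0.000352), and CTTATC, which overlaps the GATA site, in 18.6% and 5.00% (adjusted p = 0.00113). These 2 were named after their values were seen.

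The 220 peaks lay in 180 host genes, which is 0.901% of 19973 protein-coding genes. Of the hosts 153 had 1 peak, 18 had 2 and 9 had 3 or more, and no summit lay in more than 1 protein-coding gene. Hosts were long. The host of the median peak spanned 7660 bp, whereas the median base open to the rule lay in a gene of 5182 bp. A summit in the promoter window was present for 10 of the 180 hosts (5.56%, interval 2.70 to 9.98) and for 344 of all protein-coding genes (1.72%).

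The gene with the most peaks was mnk-1, a MAP kinase-interacting kinase gene on chromosome II. Its 6 peaks had signals of 86.5, 81.7, 68.6, 67.6, 65.6 and 6.37, and 5 of them lay in intron 2, which is 5833 bp long. The weakest shared its replicate peaks with that of 65.6. zfp-1, the homologue of the leukaemia gene AF10, had 4 peaks with signals of 83.7, 81.3, 79.6 and 2.45, in introns 4 and 9. lfe-2, which encodes an inositol trisphosphate kinase, had 3 at 118, 85.6 and 82.8, and ppfr-1, a regulatory subunit gene of protein phosphatase 4, had 3 at 110, 78.1 and 77.97.

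The other hosts with 3 peaks were T23B5.3, Y43F8B.2, pqn-41, mak-1 and fkh-7. At T23B5.3 the second and the third peak had signals of 95.2 and 94.1, both in intron 11. Y43F8B.2 had 104, 99.5 and 81.1. pqn-41, which encodes a glutamine-rich protein, had 97.4, 91.7 and 63.8 in 1 intron of 10372 bp. mak-1, a MAPK-activated kinase gene, had 77.9, 70.6 and 23.9, all in exons, and fkh-7, a forkhead factor gene, had 71.3, 60.6 and 2.02.

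Genes of transcription factors were among the hosts with the most peaks for their length. Outside the receptor and homeobox lists, 9 of 181 factor genes were hosts (4.97%, interval 2.30 to 9.23), with 12 peaks or 16 per Mb of DNA open to the rule, beside 4.01 per Mb over all protein-coding genes. The 12 include the weaker peaks of shared pairs at egl-44 (9.39) and fkh-7 (2.02), which are not separate observations. The density over all genes includes all 13 such weaker peaks. egl-27 had a signal of 148 with replicate values of 73.1 and 75, in an intron with a snoRNA gene 426 bp downstream of the summit. klf-1 had 138 with 50.8 and 81.2. daf-16, the FOXO factor of insulin signalling, had 107 with 47.6 and 56.0, and jun-1, an AP-1 factor gene, had 83.6 with 40.2 and 42.2. The last was in neither replicate's own list.

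Nuclear receptor genes were hosts at 4 of 274 (1.46%, interval 0.399 to 3.70), or 4.84 peaks per Mb. nhr-27 had a signal of 100 in an intron of 100912 bp, the longest among the bound introns, with 42.7 and 54.1 in the replicates. nhr-41 itself held a peak in intron 4, 3562 bp after the 5′ end, with a signal of 89.2 and replicate values of 23.5 and 65.0, and it was in the list of replicate 2 alone. Its replicate 1 value was at the bottom of the range, since over the gene body peaks the lowest was 23.5 and the median 37.4. nhr-3 had 78.3 and nhr-19 had 60.2. Of the homeobox and POU genes 2 of 92 (2.17%) were hosts, ceh-8 (69.4) and ceh-60 (66.7), both with the summit in an exon.

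Lipid metabolism genes gave 6 hosts of 174 (3.45%, interval 1.28 to 7.35) and 11.7 peaks per Mb. These included acox-1.3, a peroxisomal acyl-CoA oxidase gene, with a signal of 98.3 and replicate values of 24.9 and 71.7. The first of these replicate values was below the lower quartile of gene body peaks in replicate 1, which was 30.1. pmt-2, a methyltransferase gene of phosphatidylcholine synthesis, had 91.2, ckb-2, a choline kinase gene, 83.1, and cept-2, a choline/ethanolamine phosphotransferase gene, 76.6. The list for Wnt, Notch, EGF and TGF-beta signalling had 3 hosts of 82 (3.66%), mom-1 (128), lin-14 (74.7 and 5.69) and lag-1 (65.0), the Notch effector. Of these, lin-14 is a developmental timing gene that the list counted, not a member of these pathways. The insulin, dauer and ageing list had 2 hosts of 41 (4.88%), daf-16 and aak-2, an AMP kinase gene (68.9).

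The remaining lists gave few hosts each, and their shares stand beside 0.901% over all protein-coding genes. The basement membrane and matrix list had 2 of 34 (pxn-1 and vab-10), or 5.88% (interval 0.720 to 19.7), the highest share of the 20 lists. However, vab-10 encodes a cytoskeletal linker and is counted again below. Cuticle collagens and related genes had 2 of 205 (0.976%, cutl-18 and col-87). Moulting genes had 2 of 161 (1.24%, lin-42, signal 117, and ptr-17, signal 102). Ion channels had 4 of 323 (1.24%, twk-5, inx-11, glr-2 and best-18) and synaptic and neuronal genes 2 of 321 (0.623%, unc-41 and unc-104). Cytoskeletal regulators had 3 of 104 (2.88%, interval 0.599 to 8.20, frm-7, dhc-4 and vab-10). RNA-binding genes had 1 of 117 (0.855%, rbm-34), ribosomal protein genes 1 of 77 (1.30%, rps-13), and F-box, MATH and BTB genes 1 of 412 (0.243%, fbxc-17). For the ribosomal protein genes the density was 32.1 peaks per Mb, which rests on 1 peak. No host was found on the lists of 1309 chemoreceptor genes (upper limit 0.281%), 111 chromatin regulators (3.27%), 86 muscle genes (4.20%), 97 guidance and adhesion genes (3.73%) or 121 vesicle traffic genes (3.00%). The chromatin list is incomplete, since the hosts egl-27 and zfp-1 are not on it, so its count does not show that chromatin genes lack peaks. The kinesin gene unc-104 and the dynein gene dhc-4, both hosts, were counted in the neuronal and cytoskeletal lists. The lists were described by counts and shares, with no test.

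By chromosome the peaks were spread unevenly. Chromosome II held 50 (22.7%, interval 17.4 to 28.8) against 15.2% of the bases open to the rule, V held 31 (14.1%, interval 9.78 to 19.4) against 19.6%, and X held 25 (11.4%, interval 7.49 to 16.3) against 16%. The base share lay outside the interval for II and V and just inside it for X. For I, III and IV the counts were 37, 35 and 42, with the base share inside the interval. The strongest peaks were mpk-2 on II, pxn-1 on V, mom-1 on X, ints-8 on I, dhc-4 on III and T23B5.3 on IV. The middle of the chromosomes, the central 50% of each by length, held 137 summits (62.3%, interval 55.5 to 68.7) against 50.3% of bases.

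Gene body peaks were compared with promoter and distal intergenic peaks in 90 Fisher's exact tests (2-sided, Benjamini-Hochberg over all 90), of which 2 (2.22%) passed. The A box was in 42 of 220 gene body windows (19.1%) and 26 of 305 promoter windows (8.52%), an odds ratio of 2.53 (exact Fisher adjusted p = 0.0287). The B box was in 23 (10.5%) and 9 (2.95%), an odds ratio of 3.84 (exact Fisher adjusted p = 0.0287). On the log2 scale the odds ratios were 1.34 for the A box and 1.94 for the B box. Without the peaks near small RNA genes they were 1.07 and 2.16, and neither passed (exact Fisher adjusted p = 1 for both). Against distal intergenic peaks neither box passed. There the A box was in 18.8% of windows (odds ratio 1.02, exact Fisher adjusted p = 1) and the B box in 7.08% (odds ratio 1.53, adjusted p = 0.969). snoRNA genes were near 13.2% of gene body summits, 5.90% of promoter summits (adjusted p = 0.151) and 7.08% of distal summits (adjusted p = 0.375). The X chromosome held 11.4%, 19.0% (exact Fisher adjusted p = 0.375) and 19.4% (adjusted p = 0.288). The shares of the nuclear receptor hexamer, the GATA site, the E-box and the GAGA repeat did not pass a difference from either class, which does not show that they are alike.

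The rule's limits fell among like peaks. Of the summits inside genes, the gene body peak closest downstream of a 5′ end was in lfe-2 at 208 bp, with a signal of 118, and the promoter peak farthest downstream was in tsp-21 at 195 bp, with 75.4. Upstream of a 5′ end the closest gene body peak was in C33B4.4 at 504 bp (signal 65.0) and the farthest promoter peak in T24B8.3 at 497 bp (signal 70.01). At the tRNA limit there was a gap, since the farthest of the 91 summits left out only for a tRNA gene was 80 bp from it.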

How the data were processed

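Chromatin immunoprecipitation of tagged NHR-41 was deposited for 2 biological replicates of 1 group, and the members, motifs and gene lists were chosen with earlier results of these data known. Per the file headers, the peak lists were made by the authors on build ce11 from the alignments of the replicates and a control alignment, with reproducibility between replicates scored by the irreproducible discovery rate. Neither the aligner nor the peak caller is named in the headers or labels. The deposited score of a peak is capped at 1000, and the deposited signal is the caller's value, whose reference is not stated. Read depth is unknown.

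The conservative list of both replicates (1069 peaks) was used. Gene classes came from Ensembl release 115, in which 612 tRNA genes are annotated, and tRNA pseudogenes and sequence from RefSeq. Replicate signals were taken at the positions that the ranked list of both replicates names. Each summit window of 151 bp was tested against its flank with the exact McNemar test, and peak classes with Fisher's exact test, each with Benjamini-Hochberg adjustment and a threshold of 0.05. Intervals are Clopper-Pearson at 95%. Named host genes were those of the 20 strongest peaks, the strongest on each chromosome, hosts of 3 or more peaks, up to 4 of each of 20 lists, and the strongest for each motif past its test and each small RNA class. Other genes named, such as sup-6, sup-39, mir-71, mir-58a, unc-104, fars-1 and mltn-9, were picked with their values in view. In all, 15 alternatives were planned and 1 was added after seeing the data. The tests were checked on simulated data, in which summit and flanking windows had the same base composition. That check does not cover the difference in GC content between the summits and their flanks. Python 3.11.15, SciPy 1.17.1, NumPy 2.4.6, pandas 2.3.3 and matplotlib 3.10.9 were used. The sequence at 1 of the strongest peaks is not reported here.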

Additional observations from a re-analysis of the deposited data

How the results depend on the processing

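No paired analysis was possible because there is 1 group. None of the 15 other settings, or of the 1 added after seeing the data, reversed a direction. Leaving out a replicate means using the other replicate's own list. Without replicate 2 the list gave 58 gene body peaks in 55 host genes, 24.14% of summits near a snoRNA gene, and 0 motifs past the McNemar test. Without replicate 1 it gave 129 peaks in 117 genes and 3 motifs. The number of motifs past the test was also 3 with a promoter of 1000 bp and 3 with flanks 1000 bp away. GAGAGA passed in each alternative other than the list of replicate 1 alone. Against promoter peaks neither the A nor the B box passed Fisher's exact test in each replicate's list, at a score of 1000, with a promoter of 1000 bp or without the peaks near small RNA genes. The log2 odds ratio of the B box was 1.94 with the settings of the report, 1.62 at a score of 1000, 1.75 with a promoter of 1000 bp, 1.32 in the list of replicate 2 and 0.37 in that of replicate 1. For the A box it was 1.34, 1.48, 0.73, 1.13 and 0.92. TGATAA passed over all peaks in the other thresholded list of both replicates (adjusted p = 0.0261), in the list of replicate 2 alone (0.0372), with 3′ flanks (0.0472) and with flanks 1000 bp away (0.00397), all by the exact McNemar test. The cause of these changes was not tested. Read depth is unknown, and 101 peaks were in neither replicate's own list.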
